A study of Mus musculus with 3 samples.

Results

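Among the regions marked by H3K27ac in aged hematopoietic stem cells, 1168 were at least 600 bp wide, lay on an autosome (chromosomes 1 to 19) and shared no base with any H3K4me1 region. They were 1168 of 93413 H3K27ac regions in all, 1.26% of the 92455 on the autosomes and 4.49% of the 26014 autosomal regions of that width. The other 24846 wider regions met H3K4me1. The number and share rest on the calling threshold, and were 1840 and 7.07% with H3K4me1 limited to a −log10 q of 5 or more and 2594 and 17.1% with both lists limited to 10 or more. Of all autosomal H3K27ac regions 28% lacked H3K4me1, and 24741 of those were narrower than 600 bp. The members held 13.9% of the acetylated length without H3K4me1, although they were 4.51% of those regions. The members were chosen by the called width of H3K27ac regions and by the positions of called H3K4me1 regions, so values of both lists are given as a description with no test.

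The data came from SP-KSL-CD150+ bone marrow cells of C57BL/6 mice aged 24 months, with no further allele or treatment named for them. KSL stands for c-Kit positive, Sca-1 positive and lineage negative cells, SP for the side population that pumps out a dye, and CD150 for a surface receptor used to enrich long-lived stem cells. Chromatin immunoprecipitation sequencing gave 1 library for H3K27ac and 1 for H3K4me1, and an input library was not analysed here. Both stem from biological replicate 1, of which the labels call each a technical replicate, and the number of mice behind it was not found in the labels. Without replicates no difference could be tested. No mm9 gene annotation or genome was at hand, so the cell type was not checked against marker genes, no gene is named and no sequence is printed.

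H3K27ac is placed on nucleosomes by the acetyltransferases p300 and CBP and is found at active promoters and active enhancers. H3K4me1 is placed largely by the methyltransferases MLL3 and MLL4, marks enhancers whether or not they are active, and also lies beside active promoters. At the start sites of active genes the same lysine usually carries 3 methyl groups, and there H3K4me1 tends to sit in the flanks. In blood stem cells the pair of marks is widely used to tell active from primed enhancers. H3K4me3, gene starts and transcription were not measured in the files used here, so the members are described by position and signal and not assigned to promoters or enhancers.

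The H3K4me1 library was the deeper of the 2, with 19.1 against 12.9 fragments per kb of background, under an assumed fragment length. The weakest called H3K4me1 summit held 10 reads and the weakest H3K27ac summit 8. A member therefore had no called H3K4me1, which is not the same as no H3K4me1. Shares carry exact Clopper-Pearson 95% intervals, which describe counting error alone, because reads lack molecular identifiers and nearby regions share their cells and library.

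Most members lay just beside H3K4me1. The distance from a member's edge to the nearest H3K4me1 region had a median of 267 bp (quartiles 106 and 883 bp). H3K4me1 came within 100 bp of 284 members (24.3%), within 500 bp of 771 (66.0%) and within 1 kb of 904 (77.4%, interval 74.9 to 79.8%). Over all autosomal H3K27ac regions without H3K4me1 the share within 1 kb was 34.4%, and the median distance of the narrower ones was 2502 bp (quartiles 636 and 8476 bp). Beyond 5 kb lay 107 members (9.16%), beyond 10 kb 66 (5.65%) and beyond 100 kb 6.

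H3K4me1 stood within 1 kb on both sides of 536 members (45.9%, interval 43.0 to 48.8%), against 8.92% of all autosomal H3K27ac regions without H3K4me1. It stood on 1 side only of 368 members (31.5%, interval 28.8 to 34.3%) and on neither side of 264 (22.6%, interval 20.2 to 25.1%). Coverage around the summits showed the same arrangement. At 1 kb to the right and to the left of the summit, 39.6% and 38.6% of members lay inside H3K4me1. The narrower regions without H3K4me1 had 12.7% and 12.9% there, and wider regions with H3K4me1 had 70.5% and 69.4%. At 5 kb to the right the shares were 25.2% for members, 13.5% for narrower regions and 32.9% for wider regions with H3K4me1. The 8.92% comes mostly from narrower regions, and these also differed from members in strength. A fold below 4 was found in 81.0% of them and 19.3% of members. Of the members below 4-fold, 7.96% had H3K4me1 within 1 kb on both sides.

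**Figure D1:**
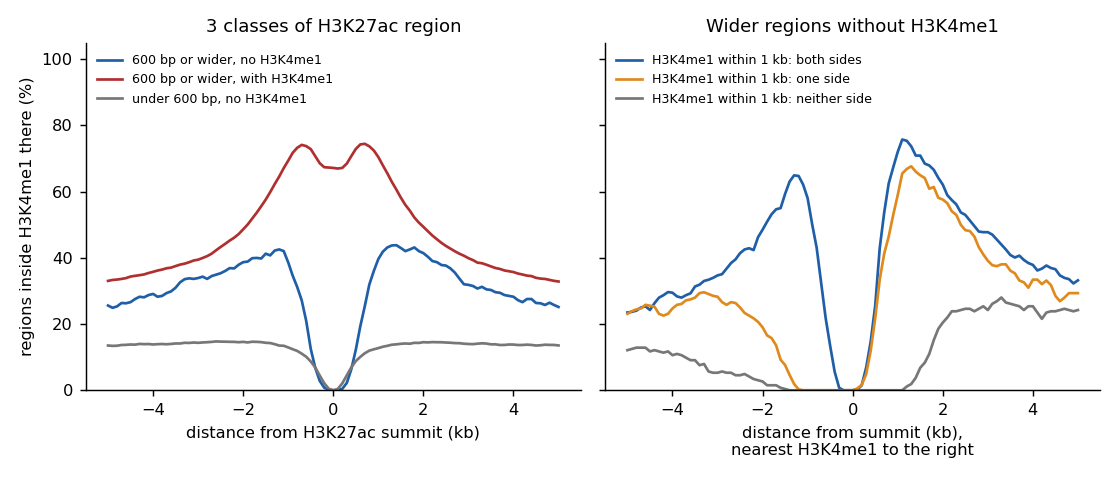
Share of H3K27ac regions inside H3K4me1 (%, vertical axis) by distance from the H3K27ac summit (kb, horizontal axis), for 3 classes of autosomal H3K27ac region on the left, and on the right for members split by whether H3K4me1 lay within 1 kb on both sides (n = 536), 1 side (n = 368) or neither (n = 264), turned so that the nearest H3K4me1 is to the right. The members' curve is 0 at the summit by the rule and reaches 43.8% at 1400 bp, while wider regions with H3K4me1 stay at 67.2% at the summit.

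Acetylation was strongest where H3K4me1 flanked the member on both sides. Fold is the authors' own value, the pileup at the summit over a background. At 80.2% of members that background was no more than 5% above the genome-wide level. Median fold was 9.46 with flanks on both sides (quartiles 6.80 and 13.4) and 5.91 with a flank on 1 side (quartiles 4.14 and 9.90). With none it was 4.05 (quartiles 3.55 and 4.73). The corresponding median summits held 32, 20 and 13 reads, and the median widths were 854, 752 and 692.5 bp. A fold of 10 or more was reached by 253 of 536 members with both flanks (47.2%), 90 of 368 with 1 (24.5%) and 11 of 264 with none (4.17%). A fold below 4 was found in 3.36%, 20.7% and 50% of them, against 51.7% of all autosomal H3K27ac regions and 11% of the wider ones. The quartile ranges of the classes with both flanks and with none did not overlap, whereas the class with 1 flank overlapped both. A fold of 10 was reached by 354 of the 1168 members (30.3%, interval 27.7 to 33.0%), 7.75% of all autosomal H3K27ac regions and 26.7% of the wider ones. Among wider regions that met H3K4me1 but had their summit outside it, the share was 58.7%.

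**Figure D2:**
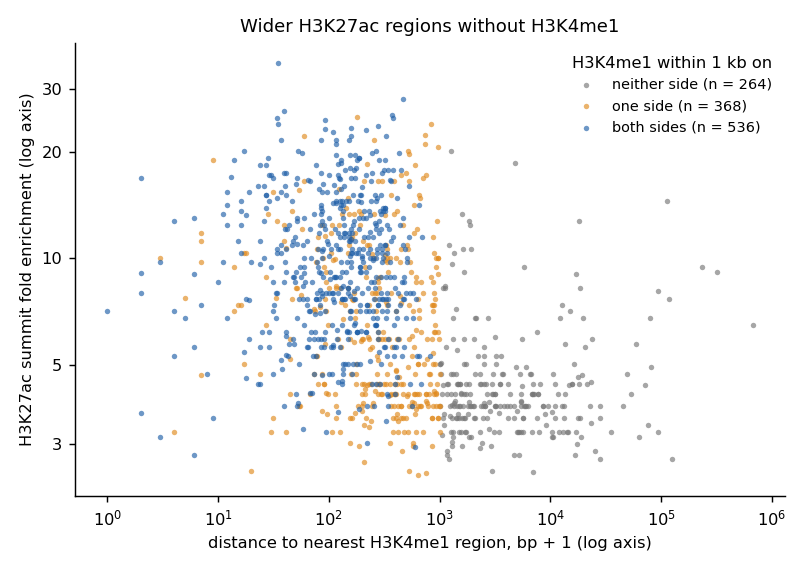
Each point is 1 of the 1168 members, with the distance from its edge to the nearest H3K4me1 region on the horizontal axis (bp + 1, log axis) and its summit fold enrichment on the vertical axis (log axis), coloured by the sides on which H3K4me1 lay within 1 kb. Members with a fold of 10 or more crowd below 1 kb, and 2 of them lie beyond 5 kb.

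The flanking H3K4me1 regions were themselves wider and stronger than the H3K4me1 regions of the autosomes at large. Next to members with flanks on both sides, the nearer H3K4me1 region had a median fold of 5.48 and a median width of 1373.5 bp, and the farther one 5.05 and 895.5 bp. The 151952 autosomal H3K4me1 regions had medians of 4.21 (quartiles 3.16 and 5.69) and 694 bp (quartiles 362 and 1372 bp). With no flank within 1 kb, the nearest H3K4me1 region had a median fold of 4.22 and a median width of 683.5 bp. Width by itself brings regions closer together, and no correction was made for it. H3K4me1 next to other wider H3K27ac regions was not measured, so neither trait is shown to be particular to members.

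The H3K4me1-free stretch around a member with both flanks had a median length of 1540 bp (quartiles 1244 and 1896 bp), and the acetylated region filled a median of 61.6% of it (quartiles 51.8 and 73.8%). In 506 of these 536 members (94.4%) no other H3K27ac region lay in the stretch. Wider regions that met H3K4me1 but had their summit outside it had, by definition, only that summit and not the whole region in a gap of H3K4me1. Where H3K4me1 lay within 2 kb of the summit on both sides, their free stretch had a median of 1027 bp (quartiles 754 and 1376 bp, n = 7246), against 1594.5 bp for members under the same limit (quartiles 1279 and 2084 bp, n = 598). Those regions were wider than the members, with medians of 1359 and 832 bp, and stronger, with medians of 11.2-fold and 9.16-fold. Members thus combined a longer gap in H3K4me1 with a shorter acetylated region. A wide region in a short gap meets H3K4me1, so the rule itself favours this combination.

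In members with both flanks the summit lay in the side of the region that faced the nearer H3K4me1 in 207 of 536 cases (38.6%, interval 34.5 to 42.9%). The nearer flank is set from the region's edges, and an edge that reaches far from the summit leaves a smaller gap. The definition itself thus favours a summit away from the nearer flank, and no conclusion is drawn from the share. The summit was closer to the centre of the H3K4me1-free stretch than the middle of the region was in 187 of these 536 (34.9%). Median distances to that centre were 180 bp for the summit and 115.25 bp for the middle of the region. The rule keeps the whole region inside the stretch, with at most 1 kb on each side. This by itself holds the middle of the region near the centre. With H3K4me1 on 1 side only, the summit lay on that side in 185 of 368 members (50.3%, interval 45.0 to 55.5%).

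Members were narrower than the wider regions with H3K4me1, with a similar median fold but a broader spread. Their median width was 778.5 bp (quartiles 673 and 1041 bp) against 1075.5 bp (quartiles 779 and 1617 bp). Their median fold was 7.09 (quartiles 4.41 and 10.6) against 6.66 (quartiles 4.87 and 10.3), with median summits of 24 and 23 reads. A fold below 4 was found in 19.3% of members and 10.6% of those regions, and 10 or more in 30.3% and 26.5%. The regions with the summit inside H3K4me1 had a median fold of 5.61, and those with the summit outside it 11.0. Narrower regions without H3K4me1 had a median fold of 3.39 (quartiles 2.95 and 3.84) and a median summit of 11 reads, below the lower quartile of the members in both. The share of wider regions without H3K4me1 fell with width, from 8.41% at 600 to 799 bp (620 of 7375 regions, interval 7.78 to 9.06%) through 3.27% at 1000 to 1499 bp (220 of 6720) to 0.916% at 3000 bp or more (10 of 1092, interval 0.440 to 1.68%). A wider region has more bases that can meet H3K4me1, so the rule itself favours this fall and the narrower width of members. Across the classes of summit strength the share did not fall steadily. It was 7.90% below 4-fold (interval 6.94 to 8.96%), 3.47% from 4-fold to 6-fold (interval 3.09 to 3.89%) and 5.37% from 10-fold to 15-fold (interval 4.71 to 6.10%), and then 3.27% at 20-fold or more (32 of 980, interval 2.24 to 4.58%).

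**Figure D3:**
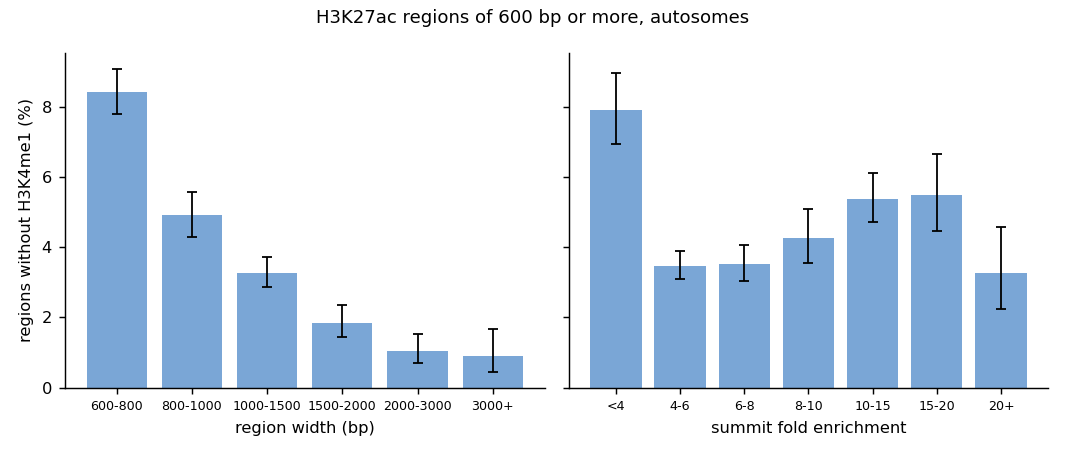
Share of autosomal H3K27ac regions of 600 bp or more that share no base with H3K4me1 (%, vertical axis), by region width (bp, left) and by summit fold enrichment (right), where each class includes its lower limit and error bars are exact 95% binomial intervals. The share falls across the classes of width to 0.916%, a direction that the overlap rule itself favours. In the classes of fold it is 7.90% below 4-fold and between 3.27% and 5.48% in the others.

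The weak and the strong members differed in their surroundings. Of the 226 members below 4-fold, 58.4% had no H3K4me1 within 1 kb and 7.96% had it on both sides, and their median distance to H3K4me1 was 1366.5 bp. Of the 227 members from 10-fold to 15-fold, 3.96% had none within 1 kb and 68.3% had it on both sides, with a median distance of 159 bp. From 15-fold to 20-fold, 75 of 95 members had H3K4me1 on both sides. At like fold the members were narrower than regions with H3K4me1, which the rule also favours. The medians were 679 and 732 bp below 4-fold, and 960 and 1538 bp from 10-fold to 15-fold.

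At like width, the median fold of members was above that of regions with the summit inside H3K4me1 in the 4 classes from 800 to 2999 bp. At 600 to 799 bp both had a median of 4.73-fold. At 1000 to 1499 bp the median was 10.3-fold for 220 members (quartiles 7.39 and 14.5) and 5.91-fold for 4074 regions with the summit inside H3K4me1 (quartiles 4.95 and 7.68). At 2000 to 2999 bp it was 13.3-fold for 28 members and 8.57-fold for 1394 such regions. Regions that met H3K4me1 with the summit outside it lay above the members in each of the 5 classes from 600 to 2999 bp. Their medians were 6.80-fold at 600 to 799 bp, 10.6-fold at 1000 to 1499 bp and 15.4-fold at 2000 to 2999 bp. In each of these 5 classes the quartile range of the members overlapped both other ranges, and regions of 3000 bp or more were not compared in this way.

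**Figure D4:**
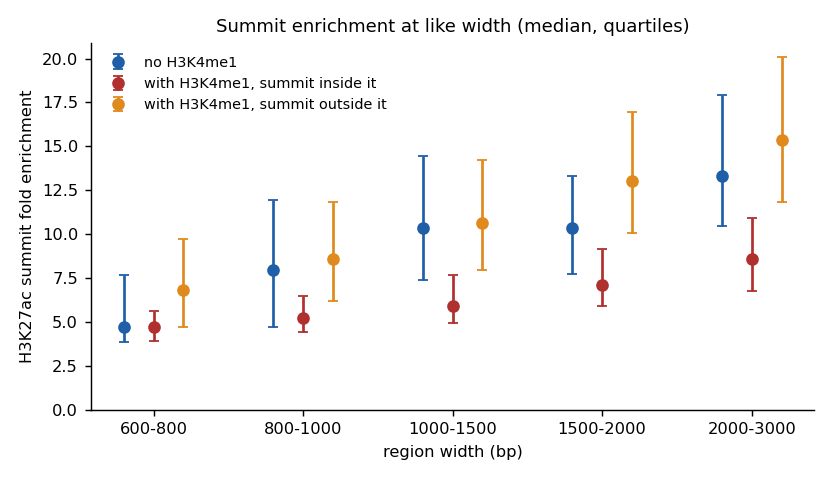
Median summit fold enrichment (vertical axis, bars from the lower to the upper quartile) of autosomal H3K27ac regions in classes of width (bp, horizontal axis, lower limit included), for members, regions with the summit inside H3K4me1 and regions with H3K4me1 but the summit outside it. At 1000 to 1499 bp the medians are 10.3, 5.91 and 10.6.

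The distance to acetylated neighbours was close to that of other wide regions. Another H3K27ac region lay within 1 kb of 650 members (55.7%, interval 52.7 to 58.5%), against 44.4% of all autosomal H3K27ac regions and 56.7% of wider regions with H3K4me1. The median distance to the nearest one was 662.5 bp for members and 659 bp for wider regions with H3K4me1. With the summit inside H3K4me1 that median was 515 bp, and 64.4% had another region within 1 kb. With the summit outside it the values were 2312 bp and 40.9%. In 483 of these 650 members (74.3%, interval 70.8 to 77.6%) that nearest region met H3K4me1, a share near the 72% of all autosomal H3K27ac regions that did. When neighbouring H3K27ac regions less than or exactly 1 kb apart were merged into blocks, the block that held the member met H3K4me1 in 565 cases (48.4%) and did not in 603 (51.6%, interval 48.7 to 54.5%). For members with both flanks the block met H3K4me1 in 325 of 536 cases (60.6%), and for members with none within 1 kb in 30 of 264 (11.4%). The 603 members in blocks without H3K4me1 had a median fold of 5.44 and a median distance to H3K4me1 of 334 bp.

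No other H3K27ac region lay within 12500 bp of 181 members (15.5%, interval 13.5 to 17.7%), against 15.7% of all autosomal H3K27ac regions and 11.3% of wider regions with H3K4me1 (interval 11.0 to 11.8%). For wider regions with H3K4me1 this share was 6.27% with the summit inside it and 21.7% with the summit outside it. Among members more than 10 kb from H3K4me1 it was 40 of 66 (60.6%, interval 47.8 to 72.4%). After joining over 12500 bp, members fell into 1110 acetylated domains, of which 55 held more than 1 member and none more than 4. Domains of 20 or more H3K27ac regions held 145 members (12.4%), against 16.1% of all autosomal H3K27ac regions and 19.7% of wider regions with H3K4me1. The last share was 25.7% with the summit inside H3K4me1 and 7.61% with the summit outside it.

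The local background at the summit, called raised where it was more than 5% above the genome-wide level, was raised at 231 members (19.8%, interval 17.5 to 22.2%), against 26.4% of all autosomal H3K27ac regions. Among wider regions with H3K4me1 the share was 31.3% with the summit inside it and 19.6% with the summit outside it. Narrower regions without H3K4me1 had 22.0%. The background was raised at 16.4% of members with both flanks, 20.7% with 1 and 25.4% with none. Its part in the weaker signal of the last class was not tested.

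The 10 strongest members ranged from 35.5-fold to 23.9-fold, and all had H3K4me1 within 1 kb on at least 1 side. The strongest, on chromosome 2 from 119302570 to 119304500 (mm9, as all positions here), was 1931 bp wide with 119 summit reads, and H3K4me1 lay 41 bp to its left and 34 bp to its right. The next, on chromosome 1 from 167389785 to 167391183, reached 28.0-fold, with H3K4me1 at 463 and 806 bp. The third, on chromosome 2 from 170336624 to 170337381, had 26.0-fold and 111 reads in only 758 bp, with H3K4me1 at 38 and 101 bp and a local background raised 1.39-fold over the genome-wide level. The fourth, on chromosome 10 from 114687915 to 114688575, reached 25.4-fold in 661 bp. These first 4 had H3K4me1 on both sides.

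The fifth, on chromosome 8 from 4677234 to 4679427, was one-sided. It reached 25.02-fold over 2194 bp, with H3K4me1 at 177 bp to the left and none for 97860 bp to the right. The tenth was the other one-sided region of the 10, on chromosome 7 from 16871633 to 16872592, with 23.9-fold and H3K4me1 at 827 bp on 1 side and 7337 bp on the other. Between them in rank came 2 members of 24.8-fold, on chromosome 12 from 32633819 to 32635200 and on chromosome 4 from 126698524 to 126700300. A member of 24.5-fold was on chromosome 10 from 92623502 to 92625736, and one of 23.9-fold on chromosome 18 from 35758227 to 35759304. The last lay in a free stretch of 1175 bp, with H3K4me1 at 63 and 34 bp.

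The widest member covered 7174 bp on chromosome 11 from 18913161 to 18920334. Its summit reached 13.3-fold with 44 reads, H3K4me1 lay 292 and 755 bp from its edges, and it belonged to a domain of 73 H3K27ac regions. The second, on chromosome 3 from 96360554 to 96365529, was 4976 bp wide and 11.3-fold, and its nearer H3K4me1 neighbour was 4840 bp wide. The third, on chromosome 14 from 106294045 to 106298058, was 4014 bp wide and 13.0-fold in a domain of 4 regions. The 10 widest members were all at least 3043 bp wide and 10.05-fold or stronger, and 9 of them had H3K4me1 within 1 kb on both sides. The exception, on chromosome 9 from 62189525 to 62192600, had it at 357 bp on 1 side and 1033 bp on the other. The rest were on chromosome 16 from 95677372 to 95680952, chromosome 3 from 29909157 to 29912408 and from 51143266 to 51146474, chromosome 6 from 51418370 to 51421587, chromosome 2 from 59961546 to 59964642 and chromosome 11 from 51669389 to 51672431. None of the 10 widest was among the 10 strongest.

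The 5 members farthest from H3K4me1 were each the only H3K27ac region of their domain. The farthest lay on chromosome 4 from 91737614 to 91738552, 670033 bp from H3K4me1 on 1 side and 869064 bp on the other, with 21 summit reads and 6.50-fold. On chromosome 19 from 8326424 to 8327363 a member of 9.16-fold lay 316495 bp from H3K4me1, and on chromosome 14 from 50681680 to 50682284 one of 9.46-fold lay 232178 bp away. The fourth, on chromosome 3 from 31335513 to 31336349, was weak, with 2.72-fold, 12 reads and a local background raised 1.59-fold over the genome-wide level. The fifth, on chromosome 17 from 22217919 to 22218543, reached 7.68-fold at 117101 bp. As a class, the 107 members beyond 5 kb had a median fold of 3.95 (quartiles 3.42 and 4.73), and 4 of these 5 lay above that upper quartile. The 2 members beyond 5 kb with 10-fold or more, chosen after their values were seen, differed in strength and distance. On chromosome 10, the one from 81816738 to 81817738 reached 14.5-fold with 48 reads, 112014 bp from H3K4me1. On chromosome 18, the one from 76359654 to 76361378 reached 12.7-fold with 42 reads, 18061 bp away.

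At the other extreme, a member on chromosome 16 from 10545325 to 10546020 abutted an H3K4me1 region with no base between them. A single base separated the 4 members listed next from H3K4me1. Ties were listed in the alphabetical order of chromosome names, and any beyond these 4 are not given. The strongest of the 4, at 16.8-fold, was on chromosome 11 from 74738759 to 74740263. The weakest of them, at 3.67-fold, was on chromosome 3 from 94113579 to 94114571. The others were on chromosome 13 from 64253191 to 64254502, at 9.12-fold, and on chromosome 6 from 72907659 to 72908882, at 7.98-fold. The place of these 5 in the class rests on the exact edge of a called region.

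The width limit cut through a continuous range. The 208 members from 600 to 649 bp had a median fold of 4.43 and a median distance to H3K4me1 of 542.5 bp, and the 326 regions of 550 to 599 bp without H3K4me1 had 4.14-fold and 626 bp. Of the 3 members of exactly 600 bp, those on chromosome 12 from 71927014 to 71927613 and on chromosome 3 from 96218175 to 96218774 reached 8.27-fold. The other, on chromosome 4 from 45542946 to 45543545, reached 5.91-fold. Just outside, 7 regions without H3K4me1 were 1 bp short of the limit. Of the first 3 in the alphabetical order of chromosome names, 2 regions of 3.55-fold were on chromosome 11 from 106405168 to 106405766 and on chromosome 19 from 35035639 to 35036237. A region of 5.32-fold was on chromosome 15 from 8229507 to 8230105.

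Members were spread over all 19 autosomes in proportion to the wider H3K27ac regions. The share of wider regions without H3K4me1 ran from 3.56% on chromosome 8 (47 of 1320, interval 2.63 to 4.71%) to 5.39% on chromosome 5 (92 of 1706, interval 4.37 to 6.57%), and these intervals overlapped. Chromosome 11 held the most members, 97 of 2065 wider regions (4.70%). The share of members with H3K4me1 within 1 kb on both sides ranged from 25.6% on chromosome 18 (11 of 43) to 55.0% on chromosome 9 (33 of 60). These are the extremes of 19 autosomes and rest on few members each. No intervals were taken for them, and their difference was not tested.

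Counts of members per window were small. Windows are ranked here by count and not by share, and 4.49% of all wider autosomal regions were members. Among the windows of 1 Mb that held a wider H3K27ac region, 1129 held no member, 547 held 1 and 19 held 4 or more. The fullest, on chromosome 16 from 10000001 to 11000000, held 7 members among 27 wider regions. They were weak, from 3.13-fold to 7.09-fold, and 5 of the 7 had no H3K4me1 within 1 kb. The 6 members among 41 wider regions on chromosome 17 from 35000001 to 36000000 differed from these. They had 8.27-fold to 20.1-fold and H3K4me1 within 320 bp of each. A second window on chromosome 17, from 84000001 to 85000000, also held 6 members, among 73 wider regions, with a median of 4.14-fold, and 4 of them had no H3K4me1 within 1 kb. Windows with 5 members lay on chromosome 9 from 44000001 to 45000000 (46 wider regions, median 7.98-fold, H3K4me1 within 506 bp of each) and chromosome 11 from 70000001 to 71000000 (47 wider regions, median 11.5-fold). Some windows with 4 members, picked after their values were seen, held a larger share than the fullest. These were 4 of 8 wider regions on chromosome 9 from 88000001 to 89000000 and 4 of 11 on chromosome 5 from 151000001 to 152000000. Others held a smaller share, such as 4 of 70 on chromosome 10 from 80000001 to 81000000.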

How the data were processed

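Groups were taken from the sample titles. Each deposited peak list holds the peaks of 1 library with their summit offsets. The submitters' processing notes name the aligner Bowtie2 2.0.6, the peak caller MACS2 2.0.10.20131216 and build mm9. Filters, caller options and control are not given in the sources used here. Per the file layout, the authors' fold is a ratio of summit pileup to local background. At each summit the deposited lists also give −log10 p and −log10 q, and the deposited score (−log10 q times 10) was not used.

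Distances count the bases between region edges. Summit reads and local background were solved from fold, as (reads + 1)/(background + 1), and −log10 p, as a Poisson probability. Whole reads fitted −log10 p to 0.001 at each of 93413 H3K27ac and 155027 H3K4me1 summits. Fragments per kb assume that fragments are as long as the narrowest peak of each list (185 and 196 bp). On simulated data made with the same formulas, 100% of 4998 H3K27ac and 4999 H3K4me1 summits were recovered, and 0 of 4500 interval values were wrong.

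Members, width and fold classes and lists were chosen with earlier results of these data known. Named are the 10 strongest, 10 widest, 5 farthest and 5 nearest members, 3 on each side of the width limit and the 5 fullest windows. Gene starts, gene lists and sequence content were planned but not analysed here, since the gene and promoter tables at hand are of another build. Software was scipy 1.17.1, pandas 2.3.3, numpy 2.4.6 and matplotlib 3.10.9 on Python 3.11.15.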

Additional observations from a re-analysis of the deposited data

Results flagged for a closer look

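The rule keeps to the autosomes. On chromosome X, outside it, 164 of 335 H3K27ac regions of 600 bp or more shared no base with H3K4me1 (49.0%, interval 43.5 to 54.4%), against 3.56% to 5.39% on the single autosomes, a signal in a chromosome the results above do not use. These 164 regions had a median fold of 7.39 and a median distance to H3K4me1 of 444 bp, beside 7.09 and 267 bp for the autosomal members. The strongest lay on chromosome X from 100688895 to 100690586 (20.4-fold, 68 summit reads, 46 bp from H3K4me1). The difference between X and the autosomes was not tested over samples, since each mark has 1 library. On chromosome Y 3 of 4 wider regions shared no base with H3K4me1.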

How the results depend on the processing

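Of 46 alternative values, 36 moved, by a factor over 1.5 (counts) or by leaving the counting interval (shares and medians). The 1168 members became 1976, 548 and 325 at minimum widths of 500, 800 and 1000 bp, 264 and 107 with no H3K4me1 within 1 and 5 kb, 2594 when both lists were limited to −log10 q values of 10 or more, and 1840 when H3K4me1 alone was limited to 5 or more. In the order of these settings, the share of wider regions (4.49%) became 6.21%, 2.94%, 2.31%, 1.01%, 0.411%, 17.1% and 7.07%. It was 6.17% with both lists limited to a −log10 q of 5 or more, 3.97% with H3K27ac alone so limited and 4.94% without raised local background, a setting chosen after seeing the data. At minimum widths of 500, 800 and 1000 bp the median fold (7.09) was 4.95, 9.75 and 10.6, the median distance (267 bp) 379, 200.5 and 169 bp, and the share with H3K4me1 on both sides (45.9%) 35.9%, 57.1% and 61.2%. With both lists limited to a −log10 q of 5 or more these were 7.72, 296.5 bp and 34.9%. With flanks of up to 2 and 5 kb the last was 58.0% and 68.0%. The isolated share (15.5%) was 12.6% at 800 bp, 12.6% at 1000 bp, 35.4% with that limit on both lists, and 28.0% and 7.71% for distances of 5 and 25 kb. Stricter limits on q remove partners, which by construction raises absence and isolation, and for the remaining moves the cause was not tested. The alternative on gene starts was left out for want of an mm9 annotation. No paired analysis was possible because only 1 library stands behind each mark.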
